A study of Rattus norvegicus with 65 samples.

Results

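The genes described here encode the nuclear subunits of respiratory complexes II to V, measured by RNA sequencing in the hypothalamus of male Wistar rats. The rows were picked by name. A protein-coding row entered if its symbol was Sdha, Sdhb, Sdhc, Sdhd or Cyc1, or began with Uqcr, Cox4, Cox5, Cox6, Cox7, Cox8 or Atp5. This rule gave 48 of the 22926 protein-coding genes among 38513 gene rows, with 4 genes for complex II, 9 for complex III, 18 for complex IV and 17 for complex V. No measured value entered the rule, but the set was chosen with earlier results of these data known. The paper had already reported the oxidative phosphorylation pathway as downregulated after gastric bypass against sham operation in these rats. The name rule also took in Atp5s and Atp5sl, which are not core subunits of complex V, and Cox7a2l, a factor that joins respiratory complexes into supercomplexes. Another 5 rows with a matching prefix, among them the row named Cox6b1, were typed as pseudogenes in the annotation and stayed out. The subunits that mitochondrial DNA encodes were not analysed here.

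The study compared weight loss after Roux-en-Y gastric bypass (RYGB), after food restriction and under gut hormone treatment. Apart from the lean rats, for which the sources used here state no age, diet or operation, the rats were 9 to 10 weeks old at the start, and the study's methods give 6 weeks on a high-fat diet before the intervention and brain removal 4 weeks after it, following 10 h of fasting. RYGB was done in 14 rats and a sham operation in 11. The 7 body-weight-matched rats (BWM) were food-restricted to follow the weight course of RYGB rats, and 6 rats were labelled lean. The paper's abstract describes the BWM group as sham plus body-weight-matched, while its methods count the 11 sham operations apart from these 7 rats. Saline was given to 8 rats, liraglutide to 5 at 0.4 mg/kg/day, PYY3-36 to 4 at 0.1 mg/kg/day and both hormones to 10 (PYY3-36+liraglutide). Liraglutide is an agonist of the receptor for glucagon-like peptide 1, and PYY3-36 is the form of peptide YY that acts on the Y2 receptor. After the intervention, high-fat and low-fat food were both on offer without limit to RYGB, sham and infused rats, and in limited amounts to BWM rats. The experiments ran in 2 periods, batch A with 37 rats and batch B with 28. BWM and lean rats were all in batch A, and the rats given 1 hormone alone were all in batch B. RYGB (11 rats in batch A, 3 in batch B), sham (5 and 6), saline (3 and 5) and PYY3-36+liraglutide (5 and 5) rats were in both. Each rat gave 1 library, so n counts rats.

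Respiratory complexes II to V sit in the inner mitochondrial membrane. Complex II takes electrons from succinate and is also an enzyme of the citric acid cycle. Complex III passes electrons from ubiquinol to cytochrome c, complex IV passes them on to oxygen, and both pump protons. Complex V, the ATP synthase, lets the protons flow back and makes ATP. Complexes III, IV and V combine subunits from nuclear and mitochondrial DNA, whereas all subunits of complex II are nuclear. Neurons depend on this system for most of their ATP. Transcription factors such as NRF1, the ETS family member GABP and YY1 are known to act on many of these nuclear genes.

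The libraries held between 20040821 and 36539714 gene-assigned counts, with a median of 27379758. The 48 genes together took 0.969% of the counts in the median library, with a range from 0.688% to 1.25%. Levels are given below as CPM, counts scaled to a common library size by the TMM method, which corrects for differences in library composition, and per kilobase of exon where genes are compared with each other. In 7 libraries, the hypothalamic peptide genes Hcrt, Pmch, Oxt and Avp were all under 10 CPM, against medians over all libraries of 51.0, 563, 407 and 282 CPM. These libraries carried the labels lean replicates 2 and 5, BWM 1, saline 4, sham 2 and 6 and liraglutide 3. Sham 10 and PYY3-36+liraglutide 8 missed this limit only through Oxt (28.4 and 25.9 CPM), and PYY3-36 2 only through Hcrt (16.0 CPM). They were not among the libraries left out together below. A further 3 libraries stood apart through genes of neighbouring tissue: BWM 5 held 12882 CPM of the pituitary hormone gene Prl, sham 1 a thalamic marker sum of 805 CPM and saline 7 91.7 CPM of the habenular gene Gpr151. Saline 5 held 44.7 CPM of Gpr151, and every library except saline 5 and 7 held at most 1.04 CPM. The counts of genes called are given with and without the 7 libraries, the further 3 and saline 5.

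Complex IV held the most abundant gene per kilobase. Cox4i1, the common form of subunit 4, had a median of 849 CPM per kb over the 65 rats, with a range of 505 to 1339. Atp5b, the catalytic beta subunit of the ATP synthase, followed with 766 CPM per kb, and Cox6a1, Cox6c and Cox8a reached 693, 517 and 507 CPM per kb. These ranges overlapped between neighbours in the order. The complex II genes lay close together, at 157 CPM per kb for Sdhc, 147 for Sdhb, 133 for Sdha and 112 for Sdhd. In complex III the medians ran from 302 CPM per kb for the hinge protein gene Uqcrh to 56.8 for Uqcrq. Atp5sl and Atp5s, which are not core subunits, were at 24.9 and 6.22 CPM per kb.

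Complex IV also has subunit forms that are known from heart, skeletal muscle, lung or testis. All of them were scarce in these libraries. Cox4i2, known mainly from lung, made up a median of 0.301% of the summed level per kb of Cox4i1 and Cox4i2, with a range over rats of 0.143% to 0.727%. Cox6a2, the heart and muscle form, was 0.417% of its pair with Cox6a1 (0.0308% to 1.39%), and Cox7a1, another muscle form, was 0.453% of its pair with Cox7a2. Cox8b was at 0.117% and Cox7b2 at 0.0384% of their pairs with Cox8a and Cox7b. Cox8c, a testis form, had a median of 0 CPM and reached at most 0.455 CPM in any rat, and of the 48 genes it alone was not tested, since it failed the filter on low counts. The 3 genes for the c subunit of the ATP synthase, which encode the same mature protein, were all expressed. Atp5g3 gave a median of 48.3% of their summed level per kb, Atp5g2 32.8% and Atp5g1 18.8%. These shares stayed within 40.2% to 53.4%, 26.1% to 40.6% and 16.8% to 24.4% in all rats.

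**Figure D1:**
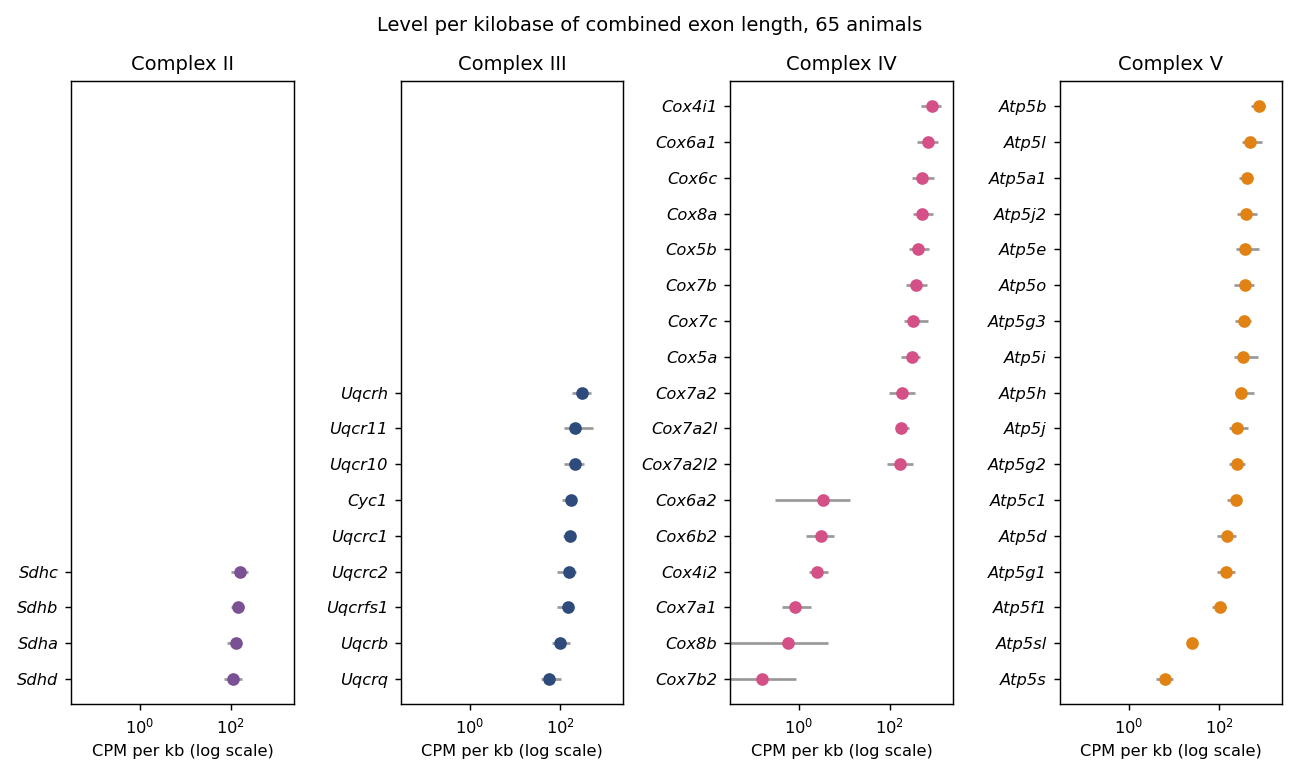
Level per kilobase of combined exon length for each gene of complexes II to V over the 65 rats, in CPM per kb on a log axis. Points are medians and lines run from the lowest to the highest rat. Cox4i1 is highest at 849 CPM per kb, and the tissue forms of complex IV sit at 3.34 CPM per kb or below. The lines of Cox8b and Cox7b2 reach 0 and are cut at the axis edge, and Cox8c, with a median of 0, is not drawn.

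Between RYGB and sham rats, genes of complexes III, IV and V were lower in RYGB, and the flavoprotein gene of complex II was higher. Of the 47 genes tested, 23 fell and 1 rose at an adjusted p under 0.05 in edgeR's quasi-likelihood test over all genes, with a term for the batch. Of all 21871 genes tested in this comparison, 6.53% were called lower and 6.52% higher, 13% in either direction, so that the 24 calls were 51.1% of these genes. The median log2 fold change of the 47 genes was -0.32, a difference of -20.1%, against -0.02 for all genes, and 42 of the 47 were below 0. At an unadjusted p under 0.05, 33 were lower and 1 higher, where 16.2% of all genes were lower and 13.9% higher (30% in either direction). All called differences were small. None of the 47 passed the study's further limit of an absolute log2 fold change over 1, which 2.37% of all genes passed. In a whole tissue, fewer cells of a type and less RNA per cell cannot be told apart.

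The summed share of the 48 genes showed the same order in both batches. In batch A, it had a median of 0.818% in RYGB rats (0.688% to 1.22%) and of 1.04% in sham rats (0.898% to 1.08%). In batch B, the 3 RYGB rats lay between 0.905% and 0.969%, below all 6 sham rats, which lay between 1.10% and 1.20%. Saline rats stood near RYGB in batch A, at 0.790%, 0.810% and 0.950%, and near sham in batch B, between 1.06% and 1.17%. BWM rats spread from 0.734% to 1.25% and lean rats from 0.744% to 1.13%, each range covering all sham rats of batch A. The PYY3-36+liraglutide rats had medians of 0.800% in batch A and 1.04% in batch B.

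**Figure D2:**
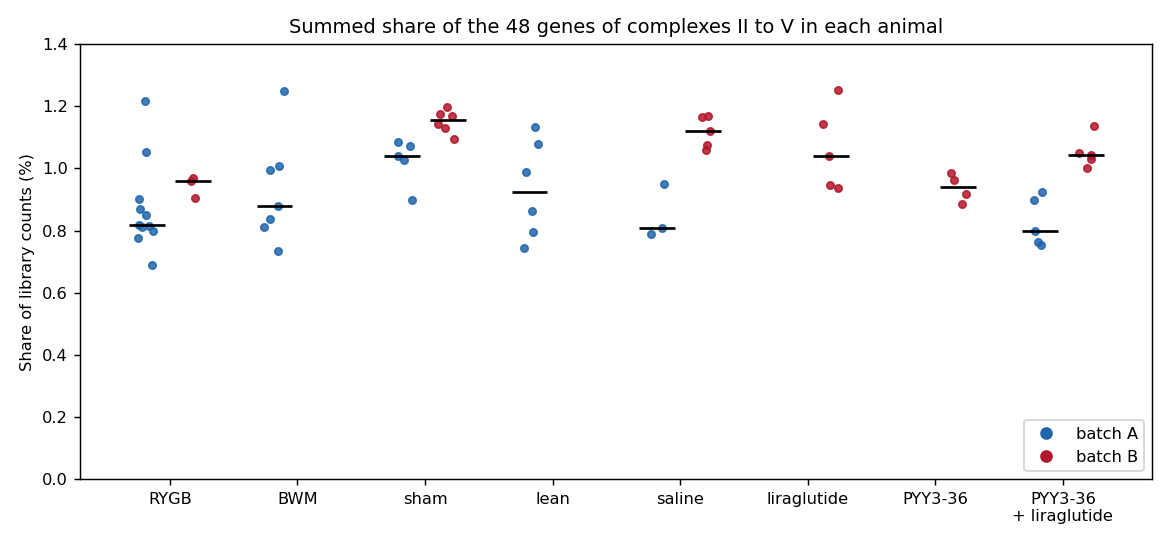
Share of each library's counts taken by the 48 genes of complexes II to V, in percent, by group. Each point is 1 rat, coloured by batch, and bars are medians of a group in a batch. The 3 RYGB rats of batch B lie between 0.905% and 0.969%, below all sham rats of that batch, while 1 RYGB rat of batch A lies at 1.22%.

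In complex II, 1 gene rose and the other 3 did not pass the adjusted test. Those 3 were lower at an unadjusted p under 0.05, where 16.2% of all genes were. Sdha encodes the flavoprotein that oxidises succinate, Sdhb the iron-sulfur protein, and Sdhc and Sdhd the membrane anchors. In batch A, Sdha ranged from 248 to 332 CPM with a median of 276 in the 11 RYGB rats, and was 187, 222, 232, 262 and 310.1 CPM in the 5 sham rats. In batch B, it was 303, 324 and 362 CPM in RYGB rats and had a lowest value of 260.2, a median of 282 and a highest value of 347 CPM in the 6 sham rats. The groups overlapped in both batches, and 11 of 14 RYGB rats lay above the sham median. Sdha rose by a log2 fold change of 0.21 ± 0.07 (SE), or 15.7% (adjusted p = 0.0334). This call was lost in 5 of the 25 fits that left out 1 of the RYGB or sham rats, those without RYGB replicates 4 and 13 and sham replicates 2, 4 and 5 (highest adjusted p = 0.0958). It was also lost without the batch term (0.14, adjusted p = 0.145) and without the 7 libraries low in hypothalamic peptides (0.20, adjusted p = 0.0681).

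The estimates of the other 3 genes of complex II were below 0. Sdhd had a log2 fold change of -0.25 ± 0.10 (adjusted p = 0.0677), Sdhb of -0.22 ± 0.08 (adjusted p = 0.0658) and Sdhc of -0.19 ± 0.08 (adjusted p = 0.0871). The sham median was above 13 of 14 RYGB rats for Sdhb and for Sdhc, and above 12 of 14 for Sdhd. Sdhd was uneven between batches. It was 122, 129 and 137 CPM in the RYGB rats of batch B, below all 6 sham rats of that batch (157 to 218 CPM), whereas in batch A its range in RYGB rats (87.5 to 188 CPM) contained that of the sham rats (116 to 151 CPM). The difference of its fold change between batches was -0.41 ± 0.20 on the log2 scale (adjusted p = 0.452).

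In complex III, 5 of 9 genes fell and none rose. Uqcrb, Uqcrq, Uqcrh and Uqcr10, small subunits without a redox group, and Cyc1, the cytochrome c1 that hands electrons to cytochrome c, were the genes that fell. Uqcrb had the smallest p of the complex. In batch A it had a lowest value of 70.4, a median of 88.8 and a highest value of 173 CPM in RYGB rats, and was 88.2, 132, 136, 140 and 155 CPM in sham rats. In batch B it was 95.2, 95.9 and 102 CPM in RYGB rats, below all 6 sham rats (134 to 155 CPM). In batch A, 1 RYGB rat, replicate 11, was above every sham rat and 1 sham rat, replicate 1, was among the RYGB values. The log2 fold change of Uqcrb was -0.44 ± 0.12 (adjusted p = 0.0117). Uqcrq (-0.47 ± 0.13, adjusted p = 0.0129), Uqcr10 (-0.40 ± 0.13, adjusted p = 0.0377), Uqcrh (-0.34 ± 0.11, adjusted p = 0.0393) and Cyc1 (-0.29 ± 0.09, adjusted p = 0.0269) followed. The 2 core proteins had values near 0, at -0.08 for Uqcrc1 (adjusted p = 0.547) and 0.11 for Uqcrc2 (adjusted p = 0.398). Neither the Rieske iron-sulfur protein gene Uqcrfs1 (-0.23, adjusted p = 0.0833) nor Uqcr11 (-0.44, adjusted p = 0.105) passed the test.

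In complex IV, 7 of the 17 genes tested fell and none rose. Cox5b, a zinc-binding subunit on the matrix side, had the smallest p. In batch A it had a lowest value of 132, a median of 168 and a highest value of 356 CPM in RYGB rats, against 196, 288, 305, 305 and 321 CPM in sham rats. In batch B it was 174, 187 and 195 CPM in RYGB rats and ran from 246 to 304 CPM in sham rats. The groups did not overlap in batch B, and 13 of all 14 RYGB rats lay below the sham median. The log2 fold change of Cox5b was -0.49 ± 0.13, or -28.9% (adjusted p = 0.0097). Cox4i1, the largest nuclear subunit of the complex, fell by 0.47 on the log2 scale (adjusted p = 0.0107), Cox6c by 0.47 (adjusted p = 0.0197) and Cox6a1 by 0.43 (adjusted p = 0.0220). Cox7c, Cox7b and Cox8a, single-pass membrane subunits, fell too, with log2 fold changes of -0.46, -0.45 and -0.34.

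The other common forms of complex IV had values on the same side without passing. Cox7a2 and Cox7a2l2 were each at -0.38 (adjusted p = 0.0704 and 0.0728). They cannot be taken as separate measurements, because their CPM had a Pearson r of 0.998 over the 65 rats at a ratio of 0.769 to 0.853, and reads that map to both were split between them. Cox5a was at -0.28 (adjusted p = 0.119) and Cox7a2l at -0.15 (adjusted p = 0.234). The scarce tissue forms had wide errors. Cox7b2 was at -0.78 ± 0.54 (adjusted p = 0.340) and Cox6a2 at 0.59 ± 0.39 (adjusted p = 0.318), and Cox6a2 ranged from 0.155 to 3.17 CPM over the sham rats alone.

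In complex V, 11 of 17 genes fell and all 17 estimates were below 0. Atp5e, the epsilon subunit of the central stalk, had the smallest p of all 47 genes. In batch A it had a lowest value of 87.5, a median of 117 and a highest value of 275 CPM in RYGB rats, and was 148, 195, 219, 225 and 228 CPM in sham rats. In batch B it was 122, 124 and 125 CPM in RYGB rats, and ran from 139 over a median of 211 to 282 CPM in sham rats. Of the 14 RYGB rats, 12 were below the lowest sham rat. The exceptions were replicates 6 and 11, at 166 and 275 CPM. The log2 fold change of Atp5e was -0.59 ± 0.15, or -33.4% (adjusted p = 0.0068).

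Other stalk and membrane subunits of complex V fell as well. Atp5i, subunit e of the membrane part, was at -0.48 (adjusted p = 0.0283), Atp5j2, subunit f, at -0.47 ± 0.13 (adjusted p = 0.0161) and Atp5h, subunit d of the outer stalk, at -0.45 ± 0.12 (adjusted p = 0.0137). Atp5j, Atp5o, Atp5d, Atp5g1, Atp5c1 and Atp5g2 were called with log2 fold changes between -0.42 and -0.27. Atp5s, known as coupling factor B, was also called (-0.32 ± 0.09, adjusted p = 0.0179). The 2 large subunits of the catalytic head, which alternate around its ring, did not pass the test. Atp5a1, the alpha subunit, was at -0.03 (adjusted p = 0.830) and Atp5b, the beta subunit, at -0.16 (adjusted p = 0.227). The b subunit gene Atp5f1 was at -0.03 (adjusted p = 0.817), Atp5g3 at -0.27 (adjusted p = 0.102), Atp5l at -0.28 (adjusted p = 0.133) and Atp5sl at -0.08 (adjusted p = 0.423).

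**Figure D3:**
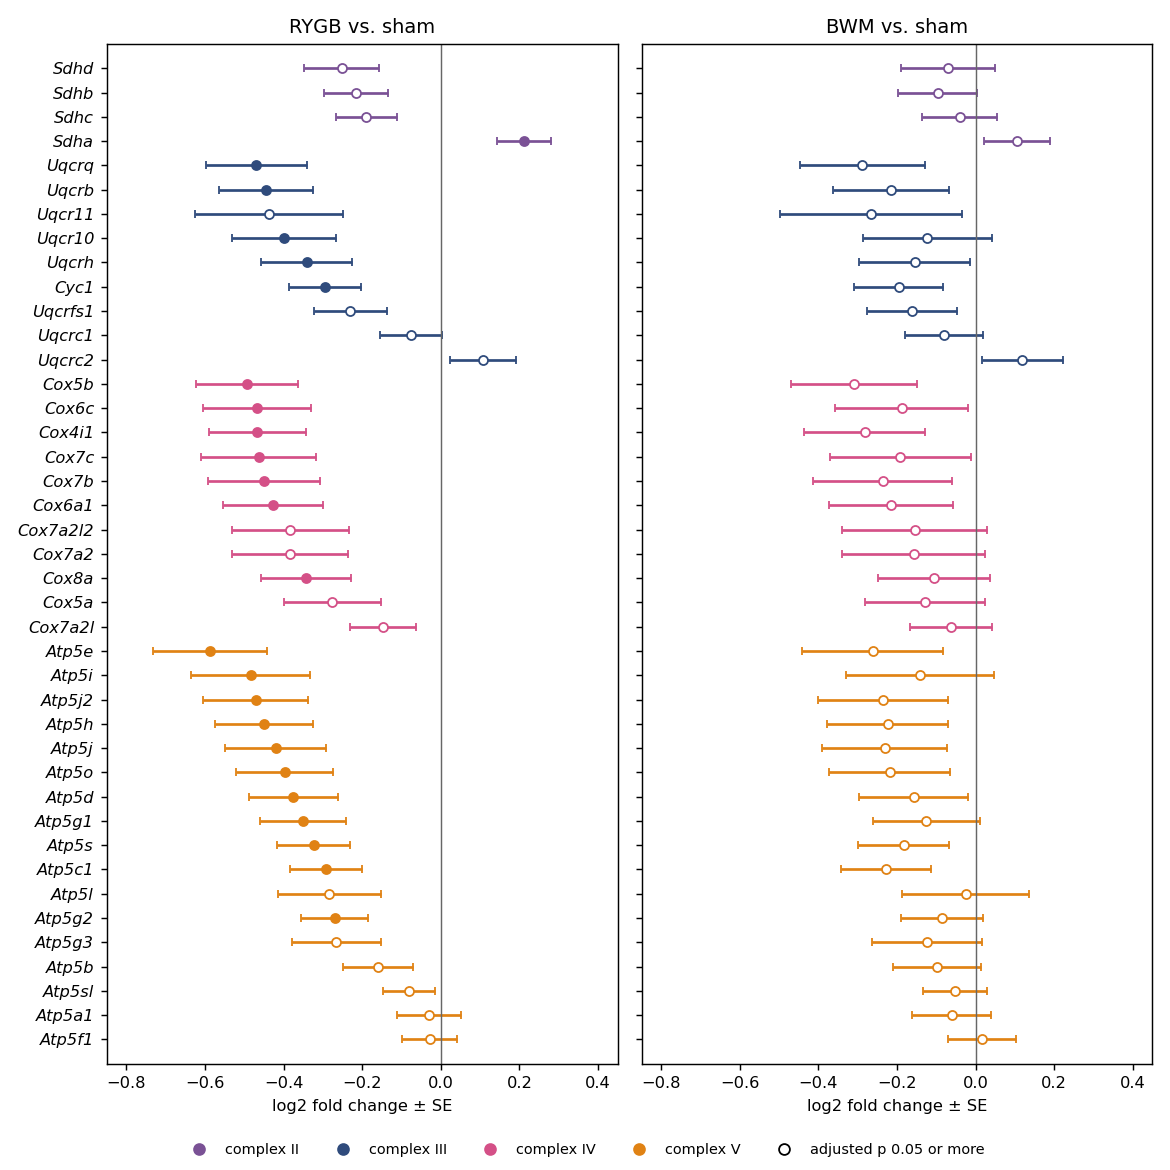
Log2 fold change with its standard error for the 41 genes with a median of 10 CPM or more, in RYGB vs. sham (left) and BWM vs. sham (right), ordered by complex. Filled points have an adjusted p under 0.05. On the left, Atp5e is lowest at -0.59 and Sdha is the only gene called above 0. On the right, no point is filled.

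**Figure D4:**
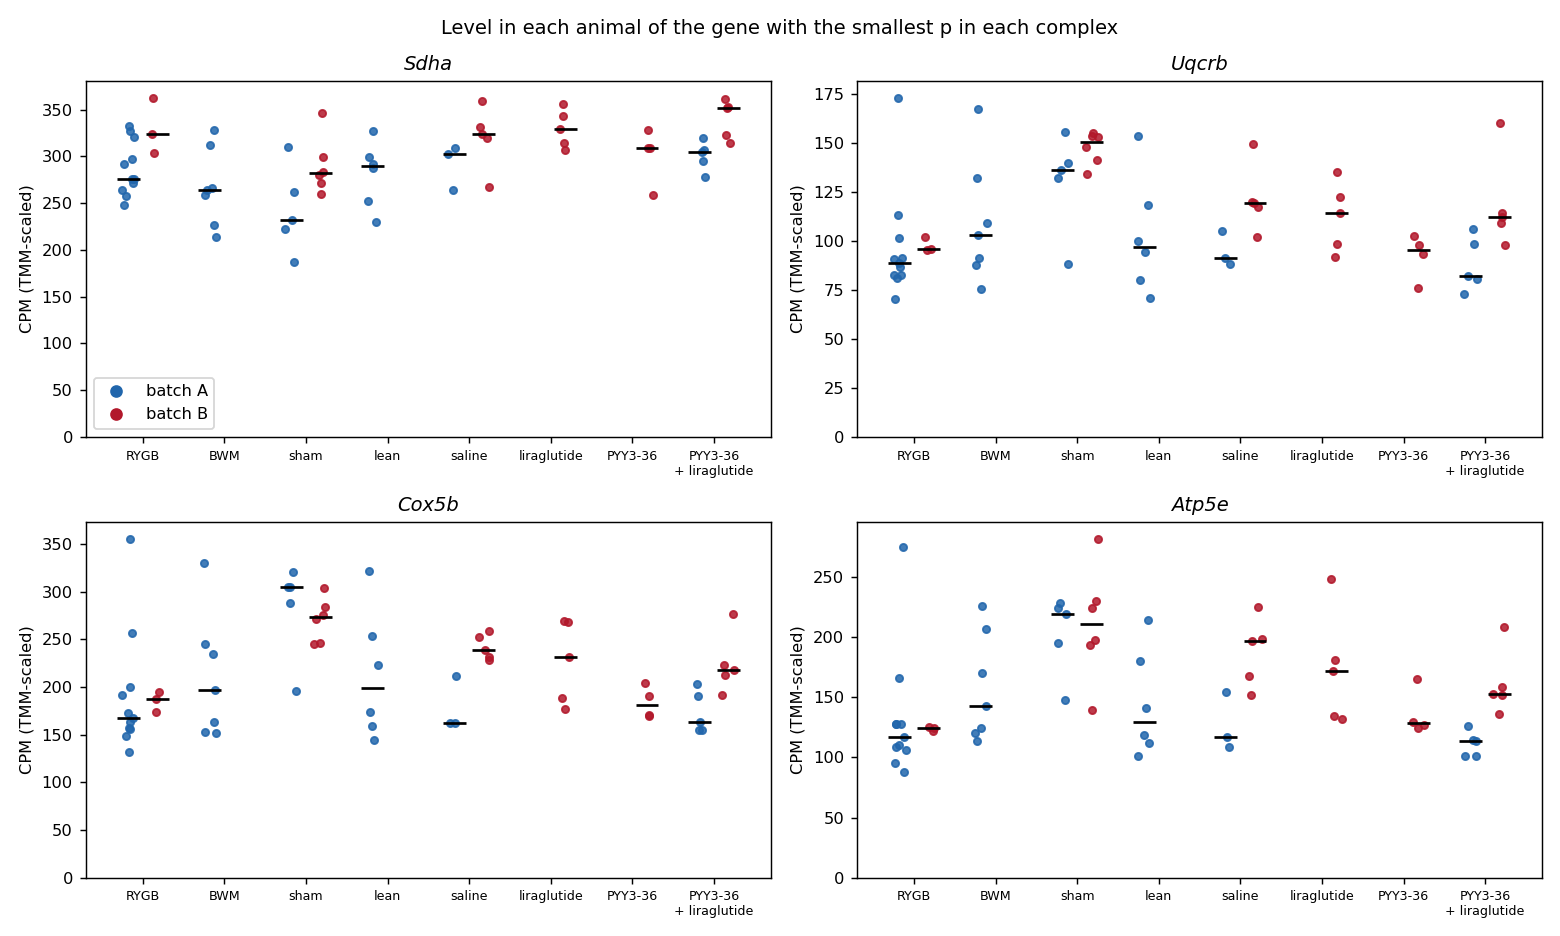
CPM of Sdha, Uqcrb, Cox5b and Atp5e, the gene with the smallest p in each complex, in every rat by group and batch. Each point is 1 rat and bars are medians of a group in a batch. For Uqcrb and Cox5b, the RYGB rats of batch B lie below all sham rats of that batch, while in batch A both groups overlap.

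Proximal promoters are shown for Atp5i and, in each of the 4 complexes, for the gene of smallest p in RYGB vs. sham that had a promoter entry. RefSeq promoters of the GRCr8 assembly were found for 40 of the 48 genes, and Uqcrb had no entry, so Uqcrq stands for complex III. Each stretch runs from 120 bases before to 30 bases after the annotated start. Capitals mark matches to the letters searched on both strands, namely GCGC, any 2 bases and GCGC for NRF1, CCGGAAG for ETS factors and AANATGGCG for YY1, none of which overlapped in these stretches.
Sdha, chr1:30764433-30764582, plus strand: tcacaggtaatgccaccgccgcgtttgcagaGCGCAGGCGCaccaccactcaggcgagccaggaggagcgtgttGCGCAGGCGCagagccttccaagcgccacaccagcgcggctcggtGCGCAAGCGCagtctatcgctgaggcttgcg
Uqcrq, chr10:38089949-38090098, minus strand: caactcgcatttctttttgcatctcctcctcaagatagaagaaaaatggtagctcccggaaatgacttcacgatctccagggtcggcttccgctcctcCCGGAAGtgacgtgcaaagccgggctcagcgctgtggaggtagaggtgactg
Cox5b, chr9:46417717-46417866, plus strand: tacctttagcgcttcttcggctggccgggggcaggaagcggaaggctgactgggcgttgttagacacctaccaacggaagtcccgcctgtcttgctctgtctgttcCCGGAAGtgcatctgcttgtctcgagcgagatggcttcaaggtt
Atp5e, chr3:183680143-183680292, minus strand: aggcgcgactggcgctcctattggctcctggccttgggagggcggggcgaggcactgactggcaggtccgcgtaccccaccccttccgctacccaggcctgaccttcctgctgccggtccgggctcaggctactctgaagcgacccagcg
Atp5i, chr14:1464740-1464889, plus strand: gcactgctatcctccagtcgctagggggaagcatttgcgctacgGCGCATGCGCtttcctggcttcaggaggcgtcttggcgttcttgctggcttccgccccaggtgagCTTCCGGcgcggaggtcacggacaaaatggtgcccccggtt
Sdha, the gene that rose, carries the NRF1 letters 3 times. Uqcrq and Cox5b each carry the ETS letters once, upstream of the start, and Atp5e carries none of the 3. Atp5i is shown as a called gene with both NRF1 and ETS letters, the latter on the reverse strand.

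Over the full window of 250 bases before to 50 after the start, 7 of the 40 genes (17.5%) held the NRF1 letters, against 5.58% of all 33469 promoters. The ETS letters stood in 13 (32.5%, against 8.75%) and the YY1 letters in 7 (17.5%, against 3.01%). At least 1 of the 3 stood in 23 genes (57.5%, against 15.3%). Among the 19 genes with a promoter that were called between RYGB and sham, 13 held at least 1 of them, and among the 21 others 10 did. A match describes the letters and not the binding of a factor.

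The fold changes were related to exon length. Across the 47 genes, the log2 fold change of RYGB vs. sham had a Spearman rho of 0.51 with the combined exon length, against 0.21 over the 17477 protein-coding genes tested. Genes share libraries and are not independent, so no p is given. Under 500 bases, 9 of 13 genes were called lower (69.2%), with a median log2 fold change of -0.45, where 23.6% of all 225 tested protein-coding genes of that length were called lower, with a median of -0.32. From 500 to under 1000 bases, 8 of 15 were lower (53.3%, against 20.8%), with medians of -0.35 and -0.22. From 1000 to under 2000 bases, 5 of 15 were lower (33.3%, against 11.99%), with medians of -0.19 and -0.09. Of the 4 genes of 2000 bases or more, Sdha rose and Atp5s fell, where 3.51% of all genes of that length were lower and 7.75% higher. Within each of these classes the median of the respiratory genes was below that of all genes. The sham vs. saline difference had a rho of -0.59 with length (-0.22 over all genes). The part of transcript length in these results was not tested.

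**Figure D5:**
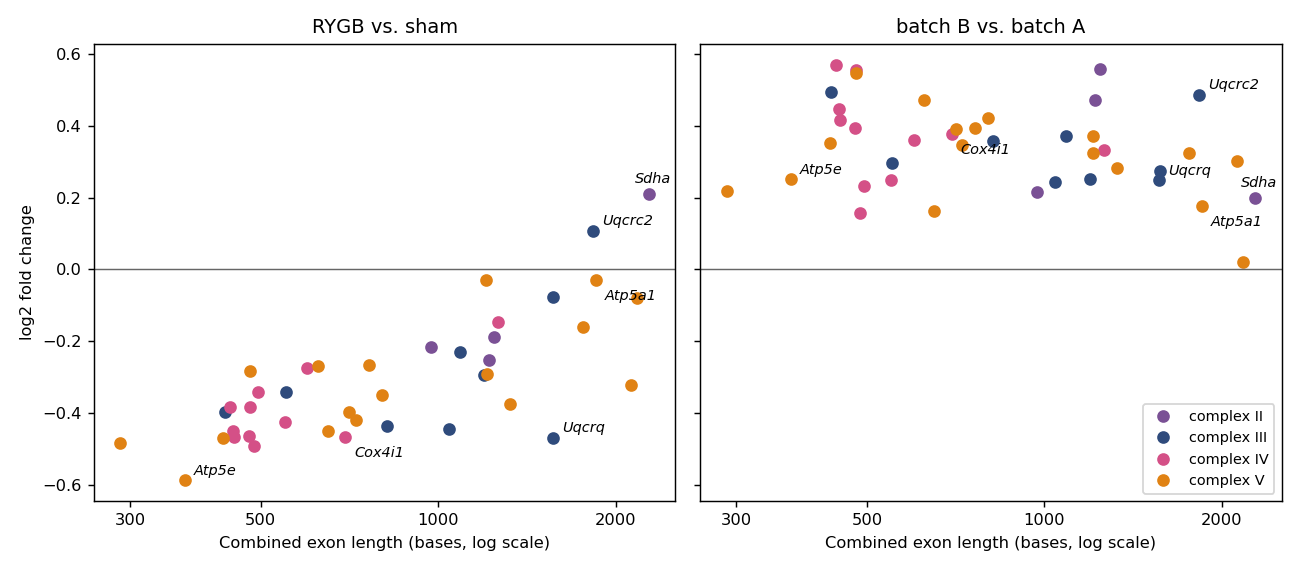
Log2 fold change against combined exon length in bases (log axis) for the 41 genes with a median of 10 CPM or more, in RYGB vs. sham (left) and batch B vs. batch A (right). Each point is a gene, coloured by complex. On the left, most short genes lie near -0.45 and Sdha, one of the longest, at 0.21.

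The difference between RYGB and sham was checked in each batch. In batch A alone, 39 of the 45 genes tested had estimates below 0 with a median of -0.31, and none passed edgeR's adjusted p under 0.05, nor did any of all genes tested there (0%). An unadjusted p under 0.05 was reached by 16 (20.7% of all genes), 15 of them lower (8.48% of all genes). In batch B alone, with 3 RYGB and 6 sham rats, 25 genes fell, where 7.16% of all genes were called in either direction, and the median was -0.39. Sizes were alike for the leading genes. Atp5e was at -0.59 in batch A (adjusted p = 0.152) and -0.75 in batch B (adjusted p = 0.0392), Cox5b at -0.53 in both (adjusted p = 0.152 and 0.0185) and Sdha at 0.27 and 0.20 (adjusted p = 0.172 and 0.276). No gene of the 47 had a difference between the batches that passed the test of that difference in edgeR or DESeq2, and in edgeR only Sdhd had an unadjusted p under 0.05, where 10.4% of all genes did. Among all genes, edgeR called none for this difference (0%) and DESeq2 0.659%.

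Ranks were also compared in each batch, where full separation is reached more easily by 3 and 6 rats than by 11 and 5. In batch B, all 3 RYGB rats were below all 6 sham rats for 33 of the 47 genes and above them for none, where 8.25% of all genes were without overlap on the lower and 7.54% on the higher side. In batch A, no gene separated the 11 RYGB from the 5 sham rats, where 0.142% of all genes did on the lower and 0.293% on the higher side. Over both batches together, none of the 47 genes separated the groups either, where 0% of all genes did on the lower and 0.00914% on the higher side. RYGB replicate 11 was the highest rat of its group and batch for Atp5e, Cox5b, Uqcrb, Cox4i1, Sdhb, Sdhc and Sdhd, and without it 35 genes were called in place of 24.

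In every one of the 25 fits without 1 RYGB or sham rat, 8 genes passed the test. These were Cox5b, Cox4i1, Uqcrb, Uqcrq, Cox6a1, Atp5e, Atp5h and Atp5j2. The number of genes called ranged from 9 without sham replicate 4 (8.36% of all genes called) to 35 without RYGB replicate 11 (22.6%). Without sham replicate 5 it was 10 (6.73%), without sham replicate 2 it was 12 (9.01%), without RYGB replicate 13 it was 13 (7.79%) and without RYGB replicate 14 it was 14 (8.95%). In each of these fits, the share of all genes called moved in the same direction as the count. Without the 7 libraries low in hypothalamic peptides, 6 genes fell and none rose (7.47% of all genes called), with a median of -0.25. These 6 were Cox4i1, Cox5b, Uqcrb, Uqcrq, Atp5e and Atp5j2. Without those and the 3 further libraries, 20 genes were called, 18 of them shared with the 24 (13.8% of all genes called), and without saline 5 as well, 19 were called, again with 18 shared (13.2%). In the other comparisons of groups, none of these genes was called in edgeR with or without these 7, 10 or 11 libraries. Leaving them out was chosen after seeing the data.

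Other measures of the libraries were compared between RYGB and sham rats, and some differed little. The marker sums below pool both batches, with 11 of 14 RYGB rats but 5 of 11 sham rats in batch A. Of all genes, 13% were called in this comparison and 30% had an unadjusted p under 0.05. Mitochondrial rRNA and tRNA rows took a median of 0.860% of counts in RYGB and 1.82% in sham rats. Within batches, the medians of batch A were 0.848% and 1.20%, and those of batch B 0.984% and 2.05%. Neuron markers summed to a median of 2683 CPM in RYGB (1601 to 6672) and 3440 CPM in sham rats (2807 to 5492), with none of 5 called. Meningeal markers summed to 148 CPM (32.4 to 1127) and 53.4 CPM (20.2 to 330.5), and hypothalamic markers to 2049 CPM (724 to 6955) and 1758 CPM (59.4 to 6941). Choroid plexus markers summed to 45.4 CPM (8.96 to 3595) and 44.4 CPM (6.43 to 682), with 1 of 5 called, Kl. All 5 oligodendrocyte markers had estimates below 0 (median -0.30, none called), and their sum had a median of 12262 CPM in RYGB (6371 to 37259) and 18858 CPM in sham rats (8189 to 37201). All 5 astrocyte markers had estimates above 0 (median 0.25, none called, 3 at an unadjusted p under 0.05), with sums of 2306 CPM (1399 to 3634) and 2076 CPM (1424 to 3303). Of 5 microglial markers, 1 was called, Cx3cr1, which was higher in RYGB (0.59, adjusted p = 0.0289), 3 were below 0, among them Aif1 (-0.39, adjusted p = 0.0958), and the median was -0.06. No marker of these lists was at a median of 0 in either group. The part of these measures in the lower levels of the respiratory genes was not tested.

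The body-weight-matched rats set RYGB beside food restriction that was meant to match its weight course. No gene of complexes II to V passed the test between BWM and sham in edgeR (0.32% of all genes did) or in DESeq2. In edgeR, 1 had an unadjusted p under 0.05, where 12.3% of all genes did, namely the scarce form Cox8b (1.604 ± 0.79, adjusted p = 0.396), which was under 1.5 CPM in every rat. The median of the 47 genes was -0.13, against -0.00 for all genes. Between RYGB and BWM, again none passed in either tool (0.343% of all genes did in edgeR), the median was -0.18 against -0.03, and 4 genes had an unadjusted p under 0.05 in edgeR (12.6% of all genes), all lower in RYGB (8.23% of all genes). For the leading genes, which were picked by their p in RYGB vs. sham, the BWM estimates stood between both groups. For Atp5e, the log2 fold changes were -0.59 in RYGB vs. sham, -0.26 in BWM vs. sham and -0.33 in RYGB vs. BWM. For Cox5b they were -0.49, -0.31 and -0.18, and for Sdha 0.21, 0.11 and 0.11. These comparisons share rats, so that the values are not independent.

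BWM rats were heterogeneous. Atp5e was 114, 120.4, 124, 142, 170, 207 and 226 CPM in the 7 rats. The lower 4 lay below every sham rat of batch A and the upper 3 within their range. Cox5b ran from 152 to 331 CPM and Uqcrb from 75.4 to 168 CPM in the same rats, and BWM replicate 2 was highest for all 3 genes. Lean rats were spread as widely, from 101 to 214 CPM for Atp5e and from 144 to 322 CPM for Cox5b. No gene passed between lean and sham in edgeR (0% of all genes) or DESeq2, with 4 at an unadjusted p under 0.05 in edgeR (12.2% of all genes). Of these, Atp5e (-0.39) and Atp5h (-0.32) were lower in lean rats and Sdha (0.18) and Uqcrc2 (0.25) higher.

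Sham rats also stood above saline rats. The median of the 47 genes in sham vs. saline was 0.22, or 16.2%, against 0.01 for all genes, and 41 of 47 estimates were above 0. None passed the adjusted test in edgeR (0.0137% of all genes did) or in DESeq2. In edgeR, 15 genes were higher at an unadjusted p under 0.05, where 6.25% of all genes were, and 1 was lower, where 6.61% were (12.9% in either direction). The smallest adjusted p was 0.284, for Uqcrb (0.35 ± 0.13). The gene that was lower was Sdha (-0.19 ± 0.08, adjusted p = 0.294). Side by side, the log2 fold change of Atp5e was 0.37 in sham vs. saline and -0.22 in RYGB vs. saline, that of Cox5b 0.37 and -0.13, and that of Sdha -0.19 and 0.02. Between RYGB and saline, no gene had even an unadjusted p under 0.05 in edgeR (2.08% of all genes did), none was called by edgeR (0.00457%) or DESeq2, and the median was -0.10. Between BWM and saline, the median was 0.08, none was called by either tool (0.0412% of all genes in edgeR), and 1 gene, Cox8b, had an unadjusted p under 0.05 in edgeR (6.47% of all genes).

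In saline rats, Atp5e and Cox5b tended to be higher in batch B than in batch A. That difference was not tested within saline rats, and neither gene was called between batches in the fit over all groups. Atp5e was 108, 117 and 154 CPM in the 3 saline rats of batch A, which overlapped with the RYGB rats of that batch, and 152, 168, 197, 198 and 225 CPM in the 5 of batch B, which overlapped with the sham rats. Cox5b was 162, 162 and 211 CPM in batch A, and 229, 232, 239, 253 and 258 CPM in batch B. In batch B, all 3 RYGB rats were below all 5 saline rats for Cox5b, as for Atp5e, Uqcrb and Cox4i1, but not for Sdha or Sdhc. In batch A the RYGB rats were on both sides, with 7 of 11 above the saline median for Cox5b, 5 for Atp5e and 4 for Uqcrb.

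The hormones were compared with saline. No gene passed the test in any of the 3 comparisons in edgeR or DESeq2. In edgeR, 0% of all genes were called for liraglutide, 0% for PYY3-36 and 0.00457% for the combination. The medians were -0.04 for liraglutide, -0.29 for PYY3-36 and -0.12 for PYY3-36+liraglutide, against -0.02, -0.01 and -0.02 for all genes. For PYY3-36, with 4 rats, 45 of 47 estimates were below 0, and 7 genes had an unadjusted p under 0.05, where 7.54% of all genes did. Of these 7, 6 were lower (3.68% of all genes), among them Uqcrfs1 (-0.36 ± 0.14), Sdhc (-0.24 ± 0.12) and Cox5a (-0.39 ± 0.19), each with an adjusted p of 0.652. The higher one was Cox6a2. No gene had an unadjusted p under 0.05 for liraglutide (2.08% of all genes did) or for the combination (2.53%). Atp5e had group medians of 161 CPM in saline, 172 in liraglutide, 128 in PYY3-36 and 131 CPM in PYY3-36+liraglutide rats, with overlapping ranges.

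Over all 8 groups, sham had the highest median of Atp5e, Cox5b and Uqcrb. These genes were picked for the smallest p of their complexes in RYGB vs. sham, which itself favours a wide gap between sham and RYGB. For Atp5e, the order was sham (219 CPM), liraglutide (172), saline (161), BWM (142), PYY3-36+liraglutide (131), lean (129.8), PYY3-36 (128) and RYGB (123 CPM). The mean ± SD was 207 ± 39.8 CPM in sham (n = 11) and 130.1 ± 45.5 CPM in RYGB rats (n = 14). Each group's median lay within the range of the next group in this order. Sdha had another order, with liraglutide highest at 329 CPM and BWM lowest at 264 CPM. Sham was next to lowest at 271 CPM and RYGB stood at 294 CPM. These medians mix batches, since some groups were in 1 batch.

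More of these genes passed the test between the batches than in any of the 10 comparisons of groups made here. In batch B, 36 of the 47 genes were higher than in batch A and none was lower, in a fit with a term for each group. Of all genes, 19.3% were higher and 21.4% lower, 40.7% in either direction. The median of the 47 genes was 0.33, or 25.9%. All 4 genes of complex II were higher, as were 8 of 9 in complex III, 11 of 17 in complex IV and 13 of 17 in complex V. In order of p, Sdhc came first with a log2 fold change of 0.56 ± 0.06 (adjusted p = 7.35e-11), followed by the core protein gene Uqcrc2 (0.49, adjusted p = 1.92e-08) and Atp5g2 (0.47, adjusted p = 5.88e-08). The highest estimate was that of the scarce form Cox7b2 (1.68 ± 0.44, adjusted p = 0.00155). Atp5e, Cox5b and Atp5h, which fell in RYGB rats, were among the 11 that did not differ at this threshold. By length, 9 of 13 genes under 500 bases were higher (36% of all protein-coding genes of that length), 11 of 15 of 500 to under 1000 bases (32.4%), 14 of 15 of 1000 to under 2000 bases (28.7%) and 2 of 4 of 2000 bases or more (14.4%). Without the 7, 10 and 11 libraries that stood apart, 35, 33 and 33 genes were higher, where 41.6%, 39.6% and 38.4% of all genes were called in either direction. The study's methods give library fragment sizes of about 285/335 bp and do not say which batch had which. The batches differ in the period of the experiment, and anything else that differed between them cannot be told apart from it.

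The genes varied together between rats of the same group and batch. Over the 40 genes with a median of 50 CPM or more, the deviations of 65 rats from their group and batch means had a median pairwise Pearson r of 0.80, with a lowest value of -0.32. Cox4i1 and Uqcrh followed the mean of the others most closely, with r of 0.98 and 0.97. Sdha did not follow it (r = -0.04). Atp5a1 (0.32), Uqcrc2 (0.42) and Atp5f1 (0.57) followed it least among the rest, and these had RYGB vs. sham estimates near or above 0. The mean of the genes had an r of 0.72 with that of the cytosolic ribosomal protein genes over the same rats. The rats share library depth and composition within these values, and no p is given.

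Neighbouring genes of the same pathway were read from lists. In RYGB vs. sham, 6.53% of all genes were called lower and 6.52% higher, 13% in either direction. At an unadjusted p under 0.05, 16.2% were lower and 30% differed in either direction. Of 37 nuclear subunit genes of complex I, 24 fell in RYGB vs. sham and none rose, with a median of -0.33, and Ndufb7 had the smallest adjusted p (-0.53, adjusted p = 0.0087). Of 30 assembly factor genes of complexes II to V that were tested, 5 fell and 1 rose, with a median of -0.14. Among them, the complex III factors Lyrm7 (-0.38, adjusted p = 0.0061) and Uqcc2 (-0.48, adjusted p = 0.0063) fell, and the copper chaperone gene Cox11 rose (0.37, adjusted p = 0.0187). Of 6 genes for cytochrome c and associated proteins, 3 fell, namely Ndufa4 (-0.45), Higd2a (-0.41) and Cycs, which encodes somatic cytochrome c (-0.38, adjusted p = 0.0498). None of 9 genes for adenine nucleotide, phosphate and outer membrane transport passed in edgeR, with 3 lower at an unadjusted p under 0.05 and a median of -0.15. None of 13 regulators of mitochondrial biogenesis passed, with 5 at an unadjusted p under 0.05 and a median of -0.06. Of 16 citric acid cycle genes, only Mdh2 fell (-0.25, adjusted p = 0.0370), a share near that of all genes called lower, with a median of -0.07. The complex II genes are not in this list, which also holds the pyruvate dehydrogenase genes. Of 77 rows for cytosolic ribosomal proteins, which are not mitochondrial, 14 fell, with a median of -0.31, close to that of complexes II to V.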

How the data were processed

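Hypothalamic poly-A RNA of 65 rats was sequenced with a stranded library kit. Per the study's methods and the labels, the authors trimmed reads with cutadapt, in more than 1 version, aligned them with STAR 2.7.2b to Rnor_6.0 and counted exon reads per gene with featureCounts 1.6.4, splitting multi-mapping and overlapping reads. The deposited estimated counts are therefore fractional (30.3% of values above 0 and 38.0% of those of the 48 genes were not whole within 1e-06), and genes with near-identical copies are uncertain.

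Counts were rounded to whole numbers. edgeR 4.0.16 (R 4.3.3, limma 3.58.1) was run with TMM scaling, its filter at a minimum count of 10 and total of 15 (21871 genes) and a robust quasi-likelihood fit over all 65 libraries with terms for group and batch. Fold changes with their SE and Benjamini-Hochberg adjusted p come from this fit. All 8 groups share 1 estimate of the spread. DESeq2 1.42.0 and other settings were alternatives. Separate animals are replicates, and the lowest chi-square per gene of any pair of libraries in a group was 16.5, so none was a duplicate. Depth gives a gene near 0.1 CPM only a few reads.

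Genes named were, in each complex, the 5 called genes with the smallest p in RYGB vs. sham, the gene with the smallest p in each of RYGB and BWM vs. sham, the highest and lowest fold change, and the 4 complex II genes. Other members are named to account for the whole set. The members and lists were chosen with earlier results of these data known. Promoters come from RefSeq (GRCr8), whose coordinates differ from those of the deposited table. The fit was tested on simulated counts.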

Additional observations from a re-analysis of the deposited data

Results flagged for a closer look

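For 25 of the genes and their summed share, 156 sets of values of 1 group were tested for a rat far from the rest of its group by Dixon's ratio, which chance passes in about 1 of 20 sets. There were 12 such values, all in groups of 10 rats or fewer. The 156 sets are fewer than all 8 groups would give, so some groups were not tested. No value of RYGB (14 rats) or sham (11 rats) is listed, and these may be the groups that were not tested. Absence from this list therefore does not show that a rat lay near its group. RYGB replicate 11, the highest of its group for Atp5e at 275 CPM, is not listed. PYY3-36+liraglutide replicate 10 stood above its group in 5 genes, with 160.5 CPM of Uqcrb (next rat 114), 146 CPM of Uqcrq (next 101), 379.5 CPM of Cox6c (next 258), 285 CPM of Atp5h (next 209.8) and 259 CPM of Atp5j2 (next 188). In the PYY3-36 group, replicate 1 held 169 CPM of Uqcrh (next 157) and replicate 2 165 CPM of Atp5e (next 129). The same replicate 2 had Pmch, Oxt and Avp under 10 CPM. BWM replicate 1, a library low in hypothalamic peptide genes, held 346 CPM of Uqcrc2 (next 262). The scarce forms of complex IV gave the other 4 values. These were Cox8b at 0.892 CPM in PYY3-36+liraglutide replicate 6 (next 0.491) and at 0.814 CPM in saline replicate 4 (next 0.307), Cox7b2 at 0.288 CPM in PYY3-36+liraglutide replicate 7 (next 0.131) and Cox6a2 at 3.70 CPM in lean replicate 6 (next 1.54). No call of these genes between PYY3-36+liraglutide or PYY3-36 and saline was made with or without any 1 rat.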

How the results depend on the processing

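In RYGB vs. sham, the fit reported called 24 genes (13% of all genes), RLE scaling 24 (12.3%) and DESeq2 24 (15.4%). The count was 19 without the filter on low counts (6.64%), 23 with only these groups in the fit (13.6%) and 35 without the batch term (25.5%). In batch A alone none was called (0). Leaving out 1 rat gave 9 to 35, and leaving out the 7 libraries low in hypothalamic peptide genes, an alternative chosen after seeing the data, gave 6. With a replicate block, 15 of the 24 remained and no other gene was added (7.38% of all genes called). The replicate numbers were not taken to pair the rats. For rats of different groups with the same number, deviations from group and batch means had a median correlation of 0.000555 (171 pairs, 52 over 0.1). With other numbers the median was -0.00439. For batch B vs. batch A, the replicate block gave 15 of 47 genes in place of 36. Of all genes, 14.1% were called with the block, in place of 40.7%. Leaving out 1 rat gave 32 to 40 of the 47. The block changed no other count, and the fit of the difference between batches with the replicate block could not be made because its terms were not independent. Without the batch term, 2 genes were called in BWM vs. sham (9.98% of all genes) and 2 in lean vs. sham (10.7%), and without lean replicate 6 there was 1 (range 0 to 1). The cause of these changes was not tested. No estimate changed sign among the named genes that were called. The median log2 fold change of the genes in RYGB vs. sham ran from -0.44 to -0.25 over all these settings. Uqcrc2, which was not called, was at -0.08 without the batch term and in batch B alone, in place of 0.11. Genes under 1 CPM are limited by depth.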
